A study of Marmota monax with 203 samples.

Results

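The genes described here encode the phase II conjugation enzymes of the liver: the UDP-glucuronosyltransferases of the UGT1 and UGT2 families, the cytosolic sulfotransferases (SULT), and the cytosolic and membrane-bound glutathione S-transferases (GST and MGST). Members were taken by their symbol alone, whatever their level or response, and 49 of the 17587 genes listed in the data met this rule, with 8 in the UGT1 family, 10 in UGT2, 11 in SULT, 18 in GST and 2 in MGST. The RNA came from liver biopsies of captive-born woodchucks (Marmota monax) that had been infected as newborns with woodchuck hepatitis virus (WHV) and were chronic carriers, so every animal of both arms carried the virus. Recombinant woodchuck interferon-alpha (wIFN-α) was injected under the skin 3 times a week, at 20 μg at label weeks 1 and 4 and at 100 μg at label weeks 8, 12 and 16, and biopsies on treatment were taken 6 h after a dose. Placebo animals were sampled at the same weeks, label week -3 preceded treatment, and label weeks 20 and 24 followed it. The label counts the week of the first dose as 1. Label week 1 was sampled after the first 20 μg dose and label week 8 after the first 100 μg dose, which followed the weeks at 20 μg. The numbers of placebo and wIFN-α animals were 12 and 11 at weeks -3 and 1, 12 and 9 at weeks 4 and 8, 10 and 8 at week 12, 9 and 8 at week 16, 5 and 6 at week 20, and 9 and 6 at week 24. Males and females were in both arms, and animal 1004 of the wIFN-α arm, which the study left out as probably clearing the virus by itself, was left out here too.

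Phase II enzymes attach a water-soluble group to drugs, hormones, bilirubin and bile acids so that bile or urine can carry them away. UDP-glucuronosyltransferases sit in the endoplasmic reticulum and use UDP-glucuronic acid, sulfotransferases are soluble and use the sulfate donor PAPS, and glutathione S-transferases couple glutathione to reactive electrophiles. In hepatocytes their transcription depends on nuclear receptors such as NR1I3 (CAR), NR1I2 (PXR), PPARA and their shared partner RXRA, and inflammation is known to lower many of them. No sequences of these woodchuck genes were used here. The authors gave contigs of their transcriptome assembly the symbol of the closest human, mouse or rat transcript, so a woodchuck gene may not be the true counterpart of the gene whose symbol it carries, and reads of near-identical copies can be split among them. This touches the UGT1A genes, which in other mammals share all but the start of their transcript, the UGT2B, GSTA and GSTM clusters and the SULT1A genes. SULT1C2P1 and GSTA7P carry the symbols of human pseudogenes.

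Each of the 149 biopsies compared held between 12072840 and 84805845 reads on genes, with a median of 28754894. Levels are CPM, that is counts relative to the library total after TMM scaling. The median level of the hepatocyte marker sum was 105800 CPM in the 134 biopsies with at most 1% of reads on 12 skeletal muscle genes. The other 15 biopsies carried 1.08% to 11.1% of their reads on these genes, and 2 of them stood furthest apart, placebo animal 1016 and wIFN-α animal 1018 at week -3, where the hepatocyte sum was only 5916 and 2925 CPM. In these 2 the sum of all members was 1463 and 1621 CPM, against 5778 to 18420 CPM in the 134 biopsies, so for called members the fit that takes each animal's change from week -3 was also made without the muscle-rich biopsies. Muscle was uneven between the arms at some weeks. The median sum of the 12 muscle genes at week 4 was 6504 CPM in placebo and 328.7 CPM in wIFN-α livers, and at week -3 it was 386.9 and 3164 CPM. Comparisons that take in week 4 therefore hold this difference in tissue. The type I interferon genes used to check the labels were higher in the wIFN-α arm at weeks 1 to 16, and all 6 passed the test at each of these weeks. At week 16 their median sum was 730.9 CPM in placebo and 13690 CPM in wIFN-α livers. At week 4 the lowest wIFN-α liver had a sum of 728.9 CPM, within the placebo range of 250.0 to 836.6 CPM, where the wIFN-α median was 10960 CPM. That biopsy was kept under its label, and at the other treatment weeks the sums of the arms did not overlap. In bulk tissue, fewer cells of a type and less RNA per cell cannot be told apart.

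Placebo livers expressed nearly the whole set. Over 81 placebo biopsies the median reached 1 CPM for 47 of the 49 members and 100 CPM for 26, and the medians summed to 12750 CPM. Per kilobase of assembled transcript, GSTA3, an alpha-class transferase, had the highest median level at 1364 CPM per kb. It was followed by SULT2A1, which sulfates dehydroepiandrosterone and bile acids, at 949 CPM per kb, the membrane-bound MGST1 at 571, UGT2B7, which glucuronidates morphine and steroids, at 497, and GSTA1 at 415. UGT1A1, the bilirubin-conjugating enzyme, reached 130 CPM per kb.

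Detection is given for each member as its placebo median in CPM, which depends on transcript length and does not rank the genes. In the UGT1A family the medians were 310.4 CPM for UGT1A1, 26.7 for UGT1A3, 86.7 for UGT1A4, 503.1 for UGT1A6, 24.3 for UGT1A7, 117.0 for UGT1A8, 12.5 for UGT1A9 and 181.2 for UGT1A10. In the UGT2 family they were 4.23 CPM for UGT2A1, 105.4 for UGT2A2, 93.8 for UGT2A3, 168.1 for UGT2B4, 1122 for UGT2B7, 48.4 for UGT2B10, 504.8 for UGT2B11, 178.3 for UGT2B15, 223.8 for UGT2B17 and 112.7 for UGT2B28. Both families were thus detected in full.

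The sulfotransferase medians were 68.8 CPM for SULT1A1, 391.7 for SULT1A2, 0.334 for SULT1A3, 65.5 for SULT1A4, 21.2 for SULT1B1, 7.96 for SULT1C2, 0.640 for SULT1C2P1, 1.24 for the oestrogen sulfotransferase SULT1E1, 1886 for SULT2A1, 5.80 for SULT2B1 and 3.60 for SULT4A1. SULT1A3 and SULT1C2P1, with medians of 9 and 15 reads per biopsy, were the 2 members under 1 CPM.

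The alpha-class medians were 423.0 CPM for GSTA1, 157.3 for GSTA2, 1230 for GSTA3, 15.4 for GSTA4, 207.4 for GSTA5 and 65.9 for GSTA7P, and the mu-class medians 758.3 for GSTM1, 794.8 for GSTM2, 37.0 for GSTM3, 266.7 for GSTM4 and 638.1 for GSTM5. Those of the other transferases for glutathione were 275.1 CPM for GSTK1, 161.1 for GSTO1, 1.04 for GSTO2, 61.4 for GSTP1, 580.1 for GSTT1, 3.24 for GSTT2, 122.7 for GSTZ1, 650.1 for MGST1 and 20.9 for MGST3. GSTO2 rested on a median of 28 reads per biopsy. The length of UGT2A1 and UGT2A2 comes out as exactly 1000 bases from the ratio of the deposited values, which may be a placeholder, so these were left out of the comparison per length.

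**Figure D1:**
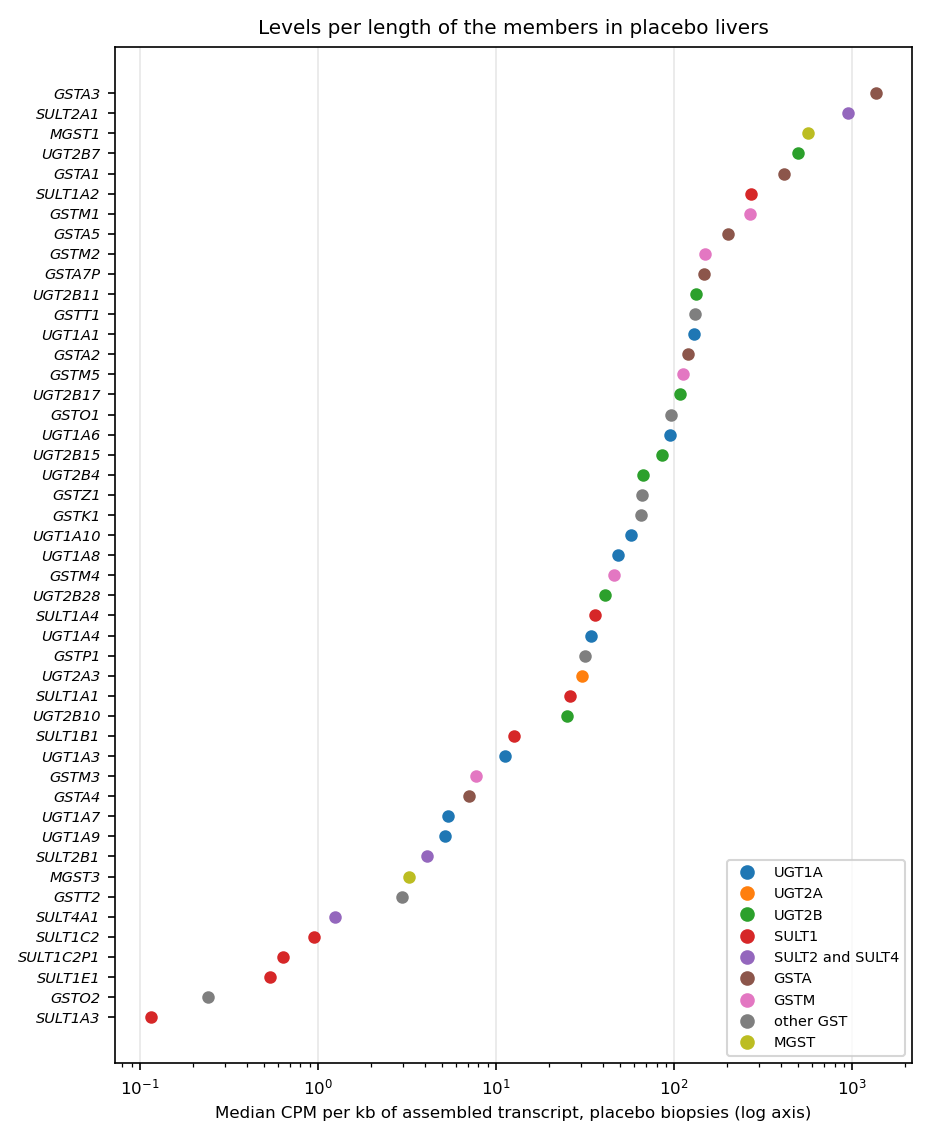
Median level of 47 members over 81 placebo biopsies, in CPM per kilobase of assembled transcript on a log axis, coloured by gene group. The levels span from 0.116 for SULT1A3 to 1364 for GSTA3, and no single group holds the top of the list.

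Members of a cluster rose and fell together from biopsy to biopsy. Over the 81 placebo biopsies, which come from 12 animals sampled repeatedly, the median pairwise Pearson correlation of log2 levels was 0.98 among the 7 UGT2B genes, 0.96 among GSTA1, GSTA2, GSTA3 and GSTA5, 0.91 among the 8 UGT1A genes, 0.90 among SULT1A1, SULT1A2 and SULT1A4, and 0.88 among GSTM1, GSTM2, GSTM4 and GSTM5. Over all 1176 pairs of members the median was 0.49. These values include shared animals, shared libraries and reads that similar transcripts may share. They also include the muscle-rich placebo biopsies, where many members were low at once. In placebo animal 1016 at week -3, GSTA2 was 0.551 CPM and UGT1A7 0.110 CPM. No correlation was taken without these biopsies. MGST3 moved with the muscle share of a biopsy: it was 309.8 CPM in placebo animal 1016 and 200.6 CPM in wIFN-α animal 1018 at week -3, against 12.9 to 37.2 CPM in the 134 biopsies with little muscle.

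The comparison at each week shows which members differed between wIFN-α and placebo livers. A gene was called when its adjusted p (edgeR quasi-likelihood test, Benjamini-Hochberg over all genes) was under 0.05 and its fold change above 1.5. Before treatment no member was called, as no gene was (0.0% of 14963 genes), no member had an unadjusted p under 0.05, and DESeq2 called none. During treatment few members were called, and the call was lower in wIFN-α livers for all of them but GSTP1. At week 1, 2 of 49 tested members were called lower and none higher, where 8.15% of all genes were called lower and 10.3% higher. At week 4 none of 48 was called by edgeR, where 3.54% of all genes were called lower and 7.24% higher, while 7 members had an unadjusted p under 0.05 and DESeq2 called 1, SULT1C2P1. Placebo livers carried more muscle reads at that week, and edgeR called 1 member without the muscle-rich biopsies. At week 8 and at week 12, 2 of 48 were called lower, where 10.1% and 7.98% of all genes were. At week 16, 6 of 48 were called lower and 1 higher, where 8.83% and 13.4% of all genes were. At each treatment week the share of members called, in either direction, was below that of all genes, with 4.08% against 18.5% at week 1 and 14.6% against 22.3% at week 16. The counts moved with single animals: 1 member was called at week 1 without wIFN-α animal 1006, 1014 or 1018, 1 at week 4 without wIFN-α animal 1018, 4 at week 12 without wIFN-α animal 1013, and at week 16, 4 without placebo animal 1001 or wIFN-α animal 1002 and 3 without wIFN-α animal 1020. With each animal's week -3 as its own reference, 5 members were called at week 8 and 5 at week 12, where 16.4% of all genes were called at each of these weeks.

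Smaller shifts reached more members. With no fold limit, the number with an adjusted p under 0.05 was 4 lower and none higher at week 1, none at week 4, 14 lower and none higher at week 8, 10 lower and 1 higher at week 12, and 16 lower and 2 higher at week 16. Of all genes, 34.6% passed by this measure at week 1 (16.2% lower, 18.4% higher), 19.4% at week 4 (7.6% lower, 11.8% higher), 46.6% at week 8 (23% lower, 23.6% higher), 37.3% at week 12 (17.2% lower, 20.2% higher) and 41.5% at week 16 (19.2% lower, 22.3% higher). The median log2 fold change of the members was -0.16 at week 1, 0.08 at week 4, -0.19 at week 8, -0.16 at week 12 and -0.22 at week 16, where that of all genes tested lay between -0.04 and -0.01. The genes of 1 cluster move together, so these counts hold fewer independent values than members. In a single fit of all weeks without the animal, which takes 1 estimate of the spread for every week, the number past the adjusted p fell to 2 at week 8, 2 at week 12 and 4 at week 16, and in the fit with the animal block it was 2 at week 1, 6 at week 8, 5 at week 12 and 8 at week 16. Without wIFN-α animal 1006 or 1014 it was 2 at week 1, and without wIFN-α animal 1018 it was 2 at week 4. The shares of all genes past the adjusted p in these other fits are not given here.

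**Figure D2:**
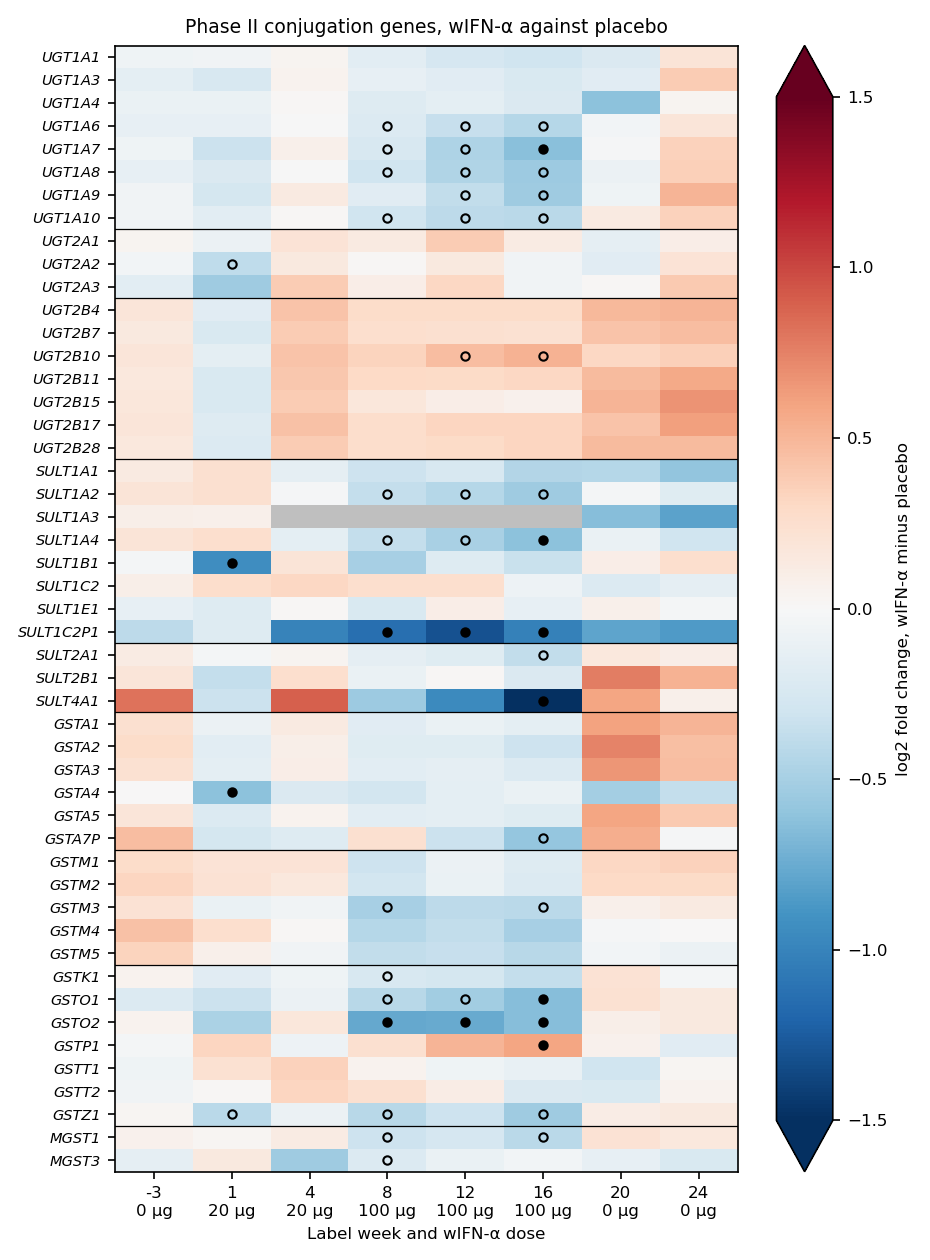
Log2 fold change of wIFN-α over placebo for the 49 members (rows, by gene group) at each label week (columns, with the wIFN-α dose). Open circles mark an adjusted p under 0.05, filled circles also a fold change above 1.5, and grey cells were too low to test. Blue prevails in the UGT1A, SULT1 and GSTM rows at weeks 8 to 16, the UGT2B rows stay red from week 4 on, and the filled circles are blue except for GSTP1 at week 16.

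Among the glucuronosyltransferases, several UGT1A genes were lower at the high dose when the groups were compared at 1 week. All 8 had log2 fold changes below 0 at weeks 8, 12 and 16, with medians of -0.20, -0.36 and -0.42, and 4, 5 and 5 of them had an adjusted p under 0.05. They had also lain below 0 before treatment, with a median of -0.08 and no p under 0.05. Those that passed were UGT1A6, UGT1A7, UGT1A8 and UGT1A10 at week 8, joined by UGT1A9 at weeks 12 and 16. UGT1A10 was 166.7, 205.8 and 232.1 CPM at lowest, median and highest in placebo livers at week 16 and 95.7, 151.4 and 227.4 CPM in wIFN-α livers. Of the 8 treated animals, 7 lay below every placebo animal and 1 was near the top of their range, and the log2 fold change was -0.40 ± 0.13 (SE, adjusted p = 0.0167).

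UGT1A7, known in other mammals for phenols in tissues outside the liver, was the only UGT1A gene called, and only at week 16. Placebo livers ranged from 21.3 to 35.2 CPM with a median of 26.0 at that week, and wIFN-α livers from 10.5 to 22.0 CPM with a median of 18.4. The groups overlapped only at the edge, since 6 of 8 treated animals lay below all 9 placebo animals. The log2 fold change was -0.62 ± 0.13 (SE), with an adjusted p of 0.00097 in edgeR. In a fit of all weeks at once the call was lost, with an adjusted p of 0.108. The log2 fold change fell below the 1.5-fold limit, and the call was lost too, without placebo animal 1001 or wIFN-α animal 1020, at -0.54 to -0.58. With the animal as a replicate block, that is as the change from week -3, it was -0.69 ± 0.42 with an adjusted p of 0.23, and without the muscle-rich biopsies -0.61 ± 0.25 with an adjusted p of 0.0521. In that blocked fit all 8 UGT1A genes were below 0 at weeks 8, 12 and 16, but none had an adjusted p under 0.05 (the lowest were 0.63, 0.41 and 0.23), and without the muscle-rich biopsies UGT1A10 alone had one, 0.0488 at week 16. The bilirubin enzyme UGT1A1 had log2 fold changes of -0.16, -0.25 and -0.30 at weeks 8, 12 and 16, none with an adjusted p under 0.05.

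The UGT2B genes, which conjugate steroids, bile acids and many drugs, did not share this direction. All 7 had log2 fold changes above 0 at weeks 4, 8, 12 and 16, with medians between 0.27 and 0.41, and all 7 were also above 0 before treatment, with a median of 0.17, and at weeks 20 and 24. UGT2B10 alone had an adjusted p under 0.05, at weeks 12 and 16. At week 16 it ranged from 27.4 to 77.4 CPM with a median of 47.1 in placebo livers and from 46.1 to 93.1 CPM with a median of 70.6 in wIFN-α livers. The ranges overlapped widely, with 1 of 8 treated animals above all placebo animals, and the log2 fold change was 0.52 ± 0.16 (SE, adjusted p = 0.0159). In the blocked fit it was 0.24 at week 12 and 0.29 at week 16, with adjusted p of 0.71 and 0.66. At week 1 the 7 genes were below 0 instead, with a median of -0.20 and no adjusted p under 0.05. Of the UGT2A genes, known from the nasal epithelium and the gut, UGT2A2 had an adjusted p under 0.05 at week 1 with a log2 fold change of -0.38 (with the animal block -0.36, adjusted p = 0.19), and no UGT2A gene had one at a later week.

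Among the sulfotransferases, SULT1B1, which sulfates thyroid hormones and small phenols, was lower at week 1. Placebo livers ranged from 11.03 to 35.5 CPM with a median of 16.5, and wIFN-α livers from 5.33 to 19.6 CPM with a median of 8.38. Of 11 treated animals, 7 lay below all 12 placebo animals. The log2 fold change was -0.93 ± 0.22 (SE), with an adjusted p of 0.00229 in edgeR, and it passed the test without each treated animal in turn and with the animal block. At week 4, still at 20 μg, the medians were 15.9 CPM in placebo and 14.8 CPM in wIFN-α livers. The effect at week 4 exceeded that at week 1 by 1.11 ± 0.33 on the log2 scale, with an adjusted p of 0.0834 in edgeR and, with the animal block, by 1.05 ± 0.18 with an adjusted p of 0.0048.

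The phenol sulfotransferases SULT1A2 and SULT1A4 moved in step and were lower at the high dose. SULT1A2 had log2 fold changes of -0.36, -0.43 and -0.54 at weeks 8, 12 and 16, each with an adjusted p under 0.05 in edgeR but none past 1.5-fold. SULT1A4, whose symbol belongs in humans to a near copy of the catecholamine enzyme SULT1A3, ranged at week 16 from 54.2 to 87.1 CPM with a median of 67.2 in placebo livers and from 20.0 to 64.6 CPM with a median of 47.4 in wIFN-α livers. Of 8 treated animals, 6 lay below all placebo animals.

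The log2 fold change of SULT1A4 at week 16 was -0.62 ± 0.18 (SE, edgeR adjusted p = 0.0115), after -0.36 at week 8 and -0.48 at week 12. It fell short of 1.5-fold, at -0.51 to -0.56, without wIFN-α animal 1002, 1003 or 1020. With the animal block SULT1A4 was called at weeks 12 and 16, with log2 differences of -0.77 ± 0.29 and -0.92 ± 0.30, and SULT1A2 at week 16 with -0.86 ± 0.31. Without the muscle-rich biopsies this fit called both genes at weeks 12 and 16, with differences of -0.64 to -0.78. The third measured gene of this kind, SULT1A1, had no adjusted p under 0.05 at any week, and SULT1A3 was too low to test at weeks 4 to 16.

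SULT1C2P1, like GSTO2, was called at weeks 8, 12 and 16, at levels near the limit of detection. At week 12 placebo livers ranged from 0.507 to 1.47 CPM with a median of 0.715, and wIFN-α livers from 0.0737 to 0.685 CPM with a median of 0.228. Of 8 treated animals, 6 lay below all 10 placebo animals, and the same count held at week 16, while at week 8 it was 6 of 9. The log2 fold changes were -1.13 ± 0.36 at week 8, -1.31 ± 0.36 at week 12 and -1.01 ± 0.33 at week 16, with edgeR adjusted p of 0.0121, 0.00731 and 0.0211, and none was lost without any single wIFN-α animal or, at week 16, any single placebo animal. Against the animal's own week -3 they were -0.97, -1.11 and -0.90 and missed the threshold, with adjusted p of 0.0813, 0.0567 and 0.124, and without the muscle-rich biopsies they passed it, with 0.0190, 0.0177 and 0.0371. At week 16 the call was also lost when only the deepest run of each biopsy was used, with an adjusted p of 0.0712.

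SULT4A1, a brain-enriched member with no established substrate, had the largest fold change of the members called and a wide spread. At week 16 placebo livers ranged from 4.34 to 43.7 CPM with a median of 12.1, and wIFN-α livers from 1.46 to 10.9 CPM with a median of 4.57. Only 3 of 8 treated animals lay below all placebo animals. The log2 fold change was -1.70 ± 0.55 (SE, edgeR adjusted p = 0.0197) and lay between -1.95 and -1.42 without single animals, the call holding each time. With the animal block it was -2.60 ± 0.67 at week 16 and was called at week 12 too, with -2.30 ± 0.66, and without the muscle-rich biopsies the differences were -2.59 and -2.24, both called. The placebo median of SULT4A1 rose from week -3 to week 16, as given under the other observations. The blocked values are thus differences between the changes of the arms and need not be falls below week -3. In a fit of all weeks at once SULT4A1 missed the threshold, with an adjusted p of 0.0676.

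The other sulfotransferases moved less. The abundant SULT2A1 ranged from 1354 to 2528 CPM with a median of 1918 in placebo livers at week 16 and from 958.6 to 1919 CPM with a median of 1550 in wIFN-α livers, with 3 of 8 treated animals below all placebo animals. Its log2 fold change of -0.37 ± 0.15 (SE) had an adjusted p of 0.0464 in edgeR, and no earlier week passed. The blocked fit gave an adjusted p of 0.32, and without the muscle-rich biopsies 0.0249. SULT2B1, a cholesterol sulfotransferase, SULT1C2 and SULT1E1 had no adjusted p under 0.05 at any week.

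Of the glutathione S-transferases, GSTA4, which clears aldehydes from oxidized lipids, was lower at week 1. Placebo livers ranged from 7.91 to 26.8 CPM with a median of 12.5 and wIFN-α livers from 6.47 to 13.9 CPM with a median of 8.53. Of 11 treated animals, 5 lay below all placebo animals, and the log2 fold change was -0.61 ± 0.19 (SE, edgeR adjusted p = 0.0138). It fell just short of 1.5-fold, at -0.57 to -0.58, without wIFN-α animal 1006, 1014 or 1018, and was called with the animal block at -0.64, and without the muscle-rich biopsies at -0.63. The abundant alpha-class genes GSTA1, GSTA2, GSTA3 and GSTA5 had no adjusted p under 0.05 at any week. GSTA3 ranged from 776.4 to 1425 CPM in placebo livers at week 16 and from 771.8 to 1422 CPM in wIFN-α livers. GSTA7P was lower at week 16, with 5 of 8 treated animals below all placebo animals and a log2 fold change of -0.58 ± 0.14 (adjusted p = 0.00246), which is just under 1.5-fold.

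The omega-class enzymes GSTO1 and GSTO2, which reduce mixed disulfides and dehydroascorbate, were lower at the high dose. GSTO1 ranged at week 16 from 88.8 to 259.5 CPM with a median of 188.6 in placebo livers and from 62.8 to 162.8 CPM with a median of 112.3 in wIFN-α livers. The ranges overlapped, with 1 of 8 treated animals below all placebo animals. Its log2 fold changes were -0.41 at week 8, -0.52 at week 12 and -0.63 ± 0.18 at week 16, with edgeR adjusted p of 0.00503, 0.0203 and 0.00821, and only the last passed 1.5-fold. Without placebo animal 1005 or wIFN-α animal 1020 it was -0.54 to -0.58, and with the animal block -0.62 with an adjusted p of 0.0759, or -0.52 and 0.0955 without the muscle-rich biopsies.

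GSTO2 was a low-level gene in these livers. At week 8 it ranged from 0.691 to 1.90 CPM with a median of 1.14 in placebo livers and from 0.289 to 1.11 CPM with a median of 0.631 in wIFN-α livers. Of 9 treated animals, 5 lay below all placebo animals. The log2 fold changes were -0.77 ± 0.23 at week 8, -0.76 ± 0.24 at week 12 and -0.64 ± 0.24 at week 16, with edgeR adjusted p of 0.0082, 0.0199 and 0.0368. At week 16 the call was lost, with adjusted p between 0.0568 and 0.0678 and log2 fold changes of -0.63 to -0.55, without placebo animal 1001, 1019 or 1021 or wIFN-α animal 1002, 1003, 1013 or 1018. With the animal block GSTO2 was called at week 8 but not at weeks 12 and 16, where the adjusted p were 0.0862 and 0.0942, and without the muscle-rich biopsies this fit called it at all 3 weeks. In a fit of all weeks at once GSTO2 missed the threshold at weeks 12 and 16, with adjusted p of 0.0670 and 0.119.

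GSTP1, the pi-class enzyme that in mammalian liver marks bile duct cells and altered hepatocytes, was the only member called higher. At week 16 placebo livers ranged from 37.3 to 91.4 CPM with a median of 63.0 and wIFN-α livers from 54.3 to 150.3 CPM with a median of 87.8. Of 8 treated animals, 4 lay above all placebo animals and the others within their range. The log2 fold change was 0.60 ± 0.21 (SE, edgeR adjusted p = 0.0295) and sat on the 1.5-fold limit: the call was lost in 15 of 28 alternatives, of which 1 was a 2-fold limit. It was lost without placebo animal 1001, 1008, 1011, 1015 or 1021 or wIFN-α animal 1002, 1014 or 1020, with log2 fold changes of 0.47 to 0.58 and adjusted p of 0.0452 to 0.0726, and with the animal block at 0.53 and an adjusted p of 0.13, though this fit called it at 0.64 without the muscle-rich biopsies. It was also lost with DESeq2, at 0.57 and an adjusted p of 0.0221.

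Markers of other cells moved at the same week as GSTP1. Of 8 cholangiocyte markers, 3 were called higher at week 16, with SOX9 and MUC1 among them, while KRT7, KRT19, EPCAM, CFTR and SPP1 had adjusted p between 0.258 and 0.828. MUC1 was at 0 in the lowest placebo liver, the other 7 were above 0 in every liver, and the sum of the 8 ranged from 100.7 to 156.9 CPM in placebo and from 183.2 to 249.2 CPM in wIFN-α livers. All 8 T cell markers were called higher too, with sums of 46.0 to 74.3 and 109.4 to 236.7 CPM, as were all 8 proliferation markers. Of 6 stellate cell and fibroblast markers 3 were called lower, with sums of 224.7 to 5014 and 217.0 to 515.1 CPM, and of 8 myeloid markers 2 higher and 1 lower, with sums of 324.9 to 542.5 and 468.0 to 969.2 CPM. At week 8, 3 cholangiocyte and 1 T cell marker were called higher and 5 stellate cell markers lower, and at week 12 these counts were 2, 5 and 1. All 8 proliferation markers were called higher at week 12 too, while 6 of them were called lower at week 1. Of 12 hepatocyte markers 1 was called higher and none lower, with sums of 74450 to 109100 and 71780 to 134700 CPM. The part of these cells in the result for any member was not tested.

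The mu-class genes, which act on a broad range of electrophiles, were read differently by the 2 kinds of fit. In the comparison of the groups at 1 week, GSTM3 alone had an adjusted p under 0.05, at weeks 8 and 16, with log2 fold changes of -0.50 and -0.41, and none of the 5 was called. GSTM4 at week 16 ranged from 184.6 to 499.9 CPM with a median of 358.5 in placebo livers and from 80.3 to 326.2 CPM with a median of 260.2 in wIFN-α livers, and 2 of 8 treated animals lay below all placebo animals. Before treatment all 5 mu-class genes had been higher in the wIFN-α animals, by 0.22 to 0.44 on the log2 scale, without passing the test.

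Taken against each animal's own week -3, GSTM1, GSTM2, GSTM3 and GSTM4 were called lower at weeks 8 and 16 and the last 3 at week 12. At week 16 the log2 differences were -0.86, -0.84, -0.93 and -1.17 with SE of 0.28 to 0.32. Without the muscle-rich biopsies they were -0.72, -0.73, -0.78 and -1.05 and still called, and GSTM5 was called with them at -0.68. In this fit 5 members were called lower at week 8, 5 at week 12 and 8 at week 16, where 6.66%, 5.78% and 7.23% of 16232 genes were.

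The remaining glutathione transferases were lower by small margins. GSTZ1, which also isomerizes maleylacetoacetate in tyrosine breakdown, had an adjusted p under 0.05 at weeks 1, 8 and 16. At week 8 it ranged from 108.6 to 162.7 CPM in placebo livers and from 79.5 to 118.9 CPM in wIFN-α livers, 6 of 9 treated animals lay below all placebo animals, and the log2 fold change was -0.41 ± 0.08 (SE, edgeR adjusted p = 0.000273), which is under 1.5-fold. In the blocked fit its adjusted p were 0.21, 0.19 and 0.0968 at weeks 1, 8 and 16, and without the muscle-rich biopsies 0.0383, 0.0234 and 0.00513. MGST1 was lower at weeks 8 and 16, by -0.31 and -0.40, GSTK1 and MGST3 at week 8, by -0.24 and -0.20, and none of these passed with the animal block. The theta-class genes GSTT1 and GSTT2 had no adjusted p under 0.05 at any week.

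**Figure D3:**
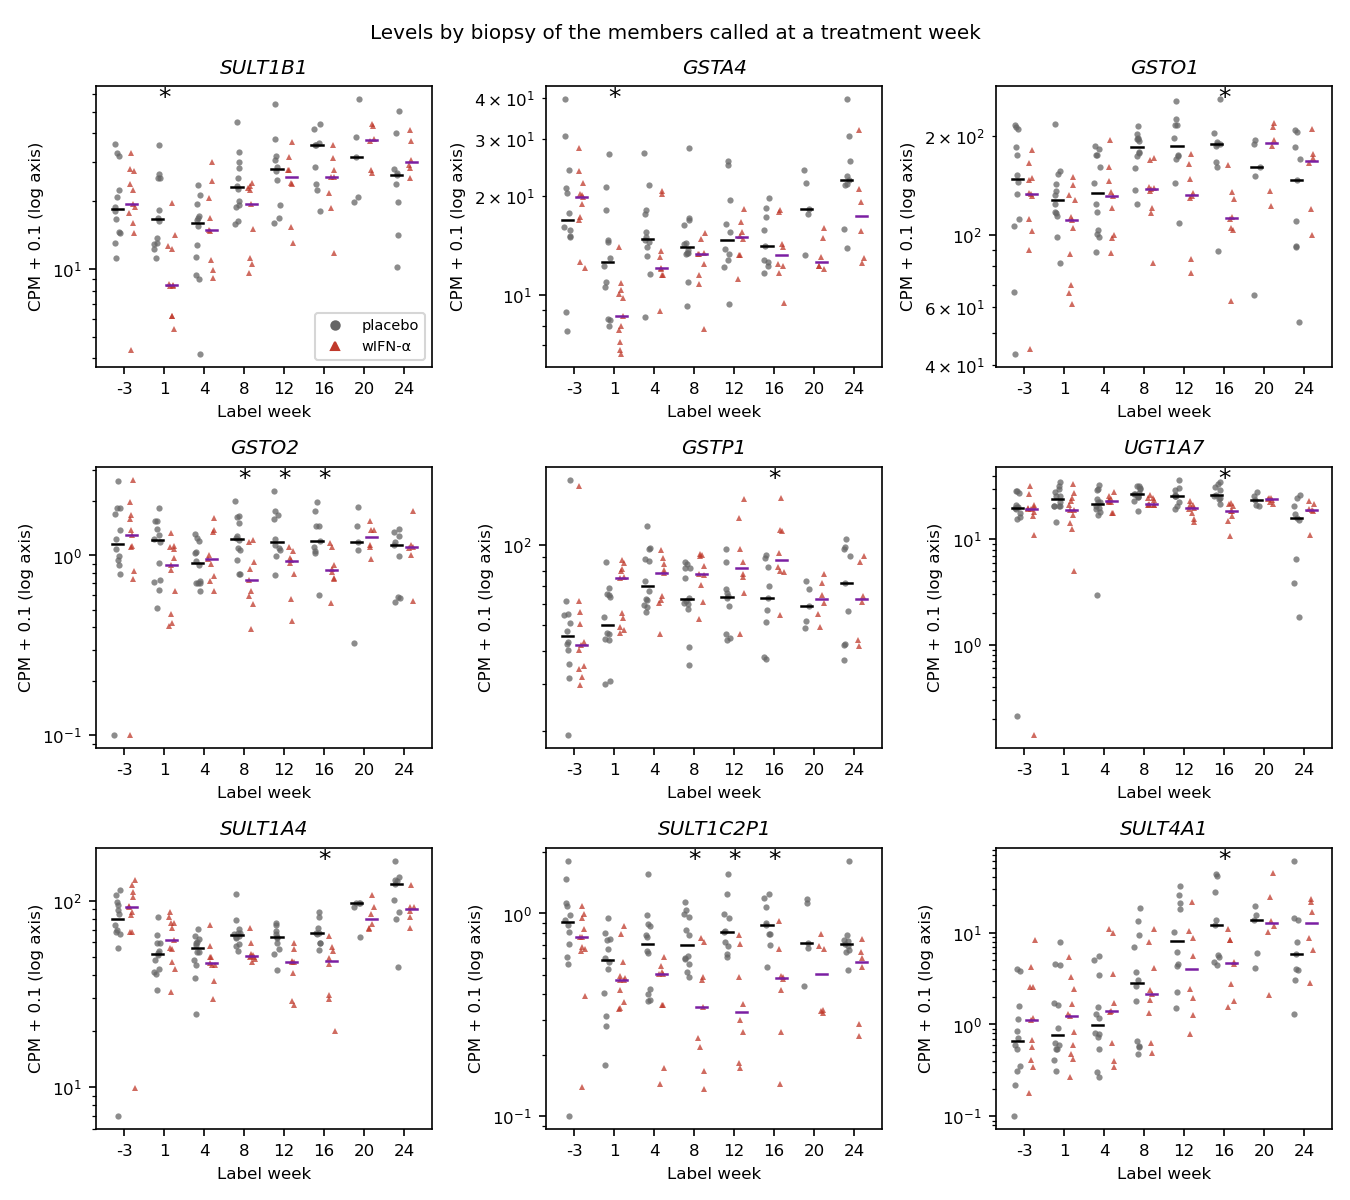
CPM + 0.1 on a log axis for the 9 members called at a treatment week, 1 point per biopsy, at each label week (grey circles and black median bars, placebo; red triangles and purple median bars, wIFN-α). Asterisks mark the weeks called. The arms overlap in every panel and week, and the separation is plainest for SULT1B1 at week 1, SULT1C2P1 at week 12 and UGT1A7 at week 16.

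Levels were also compared within the lane numbers of the labels, where a number held animals of both arms. The same index recurs under 1 lane number for different biopsies, so a number can stand for lanes of several flow cells and is only a rough batch. In 7 such lane numbers with biopsies of weeks 8, 12 and 16, the mean of the wIFN-α animals was the lower one in 7 of 7 for GSTO1, GSTO2, SULT1A4, SULT1C2P1 and UGT1A7, and in 5 of 7 for SULT4A1, and it was the higher one in 6 of 7 for GSTP1. In 4 lane numbers of week 1 it was the lower one in 4 of 4 for SULT1B1 and in 3 of 4 for GSTA4. These biopsies are among those that gave the calls, only called members were looked at, and animals recur between lane numbers. The counts are thus a description and no separate test, and an effect of the lane was not tested by them.

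After treatment no difference passed the test. At weeks 20 and 24 no member and no gene was called by edgeR (0.0% of 14715 and of 14956 genes), while 13 and 6 members had an unadjusted p under 0.05. DESeq2 called UGT1A4 lower at week 20 and no member at week 24. UGT1A4 ranged at week 20 from 87.3 to 165.3 CPM with a median of 98.8 in 5 placebo livers and from 58.8 to 88.6 CPM with a median of 71.1 in 6 wIFN-α livers, with 5 of 6 treated animals below all placebo animals. The edgeR log2 fold change was -0.61 ± 0.17, with an adjusted p of 0.30. GSTA2 at week 20 was the only case, over all members and weeks, of groups that did not overlap. It had 49.4 to 137.7 CPM in placebo and 145.0 to 230.3 CPM in wIFN-α livers, a log2 fold change of 0.74 ± 0.24 and an adjusted p of 0.31. Groups are smallest at this week, with 5 and 6 animals, and the share of all genes with groups apart was not counted.

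The design also asks whether the response changed with dose. The effect at week 16 (100 μg) minus the mean effect at weeks 1 and 4 (20 μg) was below 0 for most members, with a median of -0.35 on the log2 scale where that of all genes was -0.04. The higher dose was given later and after longer treatment, so dose and time cannot be told apart. In the fit without the animal, edgeR called no member (2.69% of 15666 genes were called, 0.645% lower and 2.04% higher), while 9 members had an unadjusted p under 0.05, all with a difference below 0, and DESeq2 called SULT1A4. The lowest adjusted p was 0.0526, for SULT1A4 with a difference of -0.73 ± 0.22.

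With the animal as a block, 12 members were called, all lower at the high dose, where 6.22% of all genes were called lower and 7.07% higher. They were GSTM1, GSTM4, GSTO1, GSTT1, MGST1, SULT1A1, SULT1A2, SULT1A4, SULT1C2, SULT4A1, UGT1A7 and UGT1A8, with differences from -0.46 ± 0.15 for SULT1C2 to -1.90 ± 0.56 for SULT4A1. Each animal gave up to 3 of the biopsies in this contrast, and the fit without the block treats them as independent. In the fit without the block and without the muscle-rich biopsies, SULT1A2 and SULT1A4 were called.

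**Figure D4:**
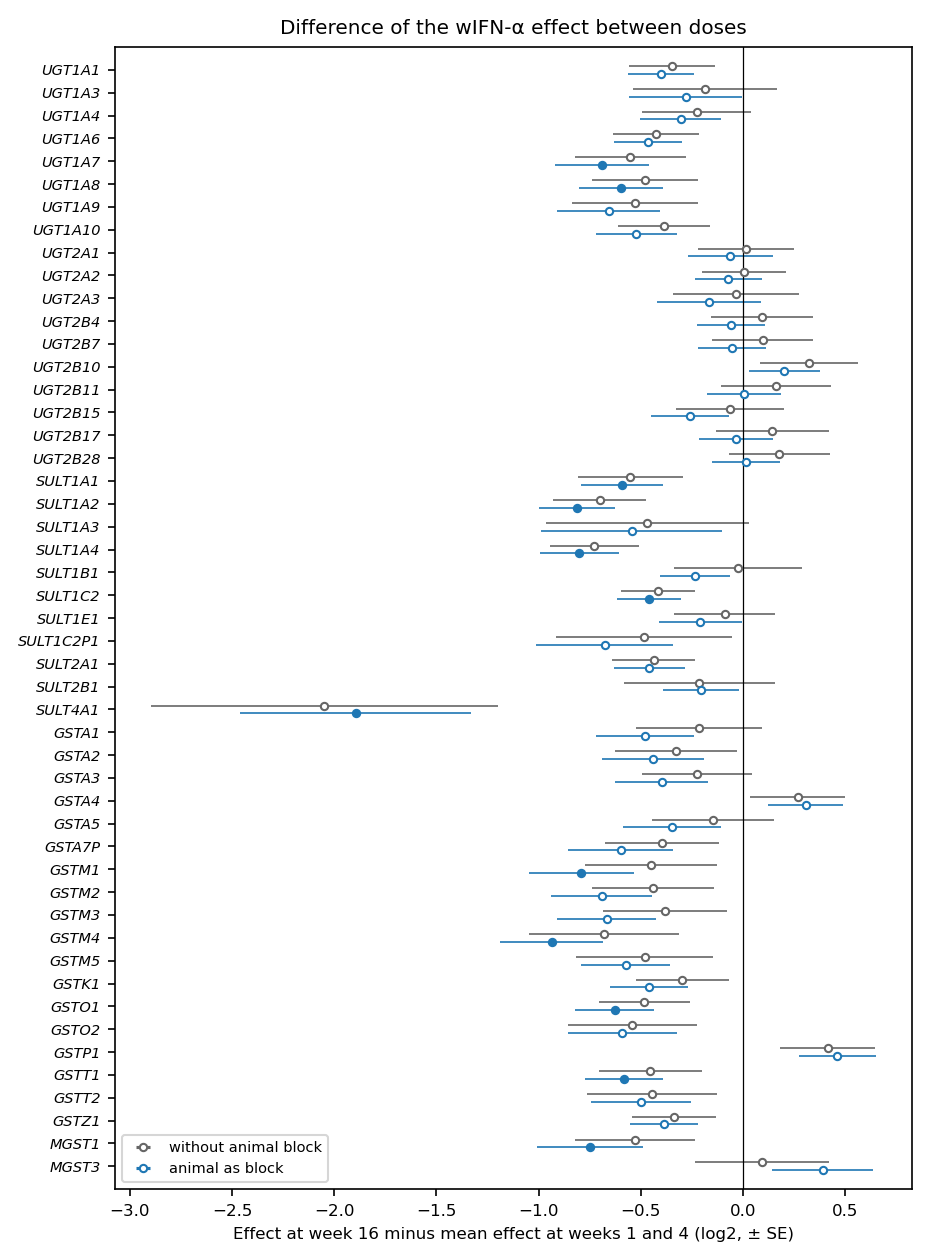
Difference of the wIFN-α effect between label week 16 and the mean of weeks 1 and 4 for each member, on the log2 scale with its SE, without the animal block (grey) and with it (blue). Filled points have an adjusted p under 0.05. Nearly all points lie left of 0 outside the UGT2A and UGT2B rows, GSTP1, GSTA4 and MGST3, and the 12 filled points are all blue.

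Within a dose the fit with the animal block called fewer members between weeks than it did between doses. From week 1 to week 4, at 20 μg, no member was called without the block (0.6% of genes were called higher, 0.102% lower), with 11 at an unadjusted p under 0.05 and none called by DESeq2, and with it SULT1B1 alone was called (1.23% of genes were). All 7 UGT2B genes had differences above 0 in this contrast, between 0.57 and 0.64, with adjusted p of 0.22 to 0.26. From week 8 to week 16, at 100 μg, no member was called without the block (0.00649% of genes were), with 4 at an unadjusted p under 0.05 and none called by DESeq2, and with the block, which called 0.221% of genes, GSTA7P was called, its effect falling by 0.87 ± 0.14 on the log2 scale with an adjusted p of 0.0190.

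Conjugation differs between the sexes in rodents, and the animals were of both sexes. No member was called between females and males before treatment (0.0668% of genes were), with 2 at an unadjusted p under 0.05, or among placebo animals at week 1 (0.0543% of genes), with 2 again, and DESeq2 called none in either comparison. The largest female minus male difference before treatment was that of SULT4A1, -1.57 ± 0.66 with an adjusted p of 0.23. All muscle-rich biopsies of week -3, and those of placebo animals at week 1, came from females. Sex and muscle share are thus mixed in both comparisons, and values without these biopsies are not given here. The effect of wIFN-α at week 16 was not shown to differ between the sexes for any member by edgeR or DESeq2 (0.0% of 15624 genes by edgeR), with no member at an unadjusted p under 0.05, from 3 male and 5 female treated animals.

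The other genes of the pathway, 64 in 9 lists of which 60 or 61 could be tested, held the regulators and donors the conjugation enzymes depend on. The animal block lowered the counts below to 1 at week 4, 7 at week 8 and 5 at week 12, where it called 10.3%, 16.4% and 16.4% of all genes. Of the pathway genes 9 of 60 were called at week 1, 4 of 60 at week 4, 12 of 60 at week 8, 12 of 61 at week 12 and 10 of 60 at week 16, where 18.5%, 10.8%, 21.6%, 20.5% and 22.3% of all genes were called. Among 13 nuclear receptors and regulators, 5 fell and 2 rose at week 1, none was called at week 4, 4 fell and 1 rose at week 8, 3 fell at week 12 and 4 fell at week 16.

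RXRA, the partner of most of these receptors, was lower at week 16, with 145.1 to 215.2 CPM and a median of 188.8 in placebo livers and 50.03 to 131.7 CPM and a median of 110.1 in wIFN-α livers. The groups did not overlap, and the log2 fold change was -0.81 ± 0.15 (edgeR adjusted p = 0.000378), after -1.03 ± 0.12 at week 1. PPARA, the receptor for fatty acids, did not overlap between the arms at week 16 either, with a median of 138.7 CPM in placebo and 76.0 CPM in wIFN-α livers and a log2 fold change of -0.93 ± 0.11. NR1I3, the drug-sensing receptor CAR, had medians of 72.6 and 34.9 CPM at week 16 and a log2 fold change of -1.03 ± 0.17, and all 3 receptors were called at weeks 1, 8, 12 and 16. The animal block kept these calls except for RXRA at week 12, where the difference of -0.49 was under 1.5-fold. NR1H4 (FXR), a bile acid receptor, was called higher at weeks 1 and 8, by 0.59 and 0.60, close to the 1.5-fold limit, and fell short of the call with the animal block (adjusted p of 0.0988 and 0.144) and without wIFN-α animal 1007 or 1022 at both weeks, 1003 or 1013 at week 1 or 1020 at week 8.

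Few genes that supply UDP-glucuronic acid and PAPS were called, while GCLC and CTH of glutathione supply were called at more than 1 week. None of 4 genes of UDP-glucuronic acid supply was called at any treatment week, and of 6 genes of PAPS supply only SLC35B2, a PAPS transporter of the Golgi, was called, higher at week 8 by 0.61 ± 0.09, a call lost without wIFN-α animal 1012 or 1014. GCLC, the rate-limiting enzyme of glutathione synthesis, was called higher at weeks 4, 8, 12 and 16. At week 16 it ranged from 86.6 to 134.1 CPM with a median of 105.3 in placebo livers and from 144.5 to 231.4 CPM with a median of 201.0 in wIFN-α livers. The groups did not overlap, and the log2 fold change was 0.86 ± 0.10 (edgeR adjusted p = 2.553e-06). CTH, which makes cysteine, was called lower at weeks 8 and 12, by -0.71 and -0.65, and with the animal block its adjusted p were 0.066 and 0.0896, and without the muscle-rich biopsies 0.00666 and 0.0129. The call of GCLC at week 4 was lost without wIFN-α animal 1003 or 1018 and with the block, and that of CTH at week 12 without wIFN-α animal 1012 or 1020.

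Of 10 tested conjugating enzymes outside these families, 1 was called lower at week 12 and 2 at week 16. NAT1, an N-acetyltransferase, was lower at week 16 by -0.59, a call lost without placebo animal 1001, 1005, 1017 or 1019 or wIFN-α animal 1002, 1020 or 1022. None of 3 deconjugating enzymes was called. Among 7 efflux pumps, ABCC3, which exports glucuronides into blood, was called higher at weeks 4, 8, 12 and 16, by 1.02, 0.77, 0.74 and 0.64, ABCB1 at weeks 4, 8 and 12 and ABCC4 at week 12. With the animal block none of these pump calls passed, while without the muscle-rich biopsies that fit called ABCC3 and ABCB1 at weeks 4 and 8. The call of ABCC3 at week 16, with a blocked adjusted p of 0.39, was also lost without placebo animal 1005 or 1021 or wIFN-α animal 1012. Of 7 NFE2L2 targets, HMOX1, the heme-degrading enzyme, was called higher at weeks 1, 8, 12 and 16, by 1.67 to 2.49, and no other of this list was called. GCLC, called higher above, was counted under glutathione supply and not in this list. The call of HMOX1 at week 12 was lost with the animal block (1.09, adjusted p = 0.087) but not when the muscle-rich biopsies were also left out (adjusted p = 0.0013). Of 3 to 4 AHR targets tested, TIPARP was called higher at weeks 1 to 16, by 1.30 to 1.93, while CYP1A1 and CYP1A2 were not called. CYP1B1, tested only at week 12, was called lower there by -1.66 ± 0.61 at a placebo median of 0.457 CPM, a call lost with the animal block (adjusted p = 0.49), with all weeks in 1 fit (adjusted p = 0.21), without the muscle-rich biopsies, and without wIFN-α animal 1002, 1003, 1012, 1013, 1014 or 1022.

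**Figure D5:**
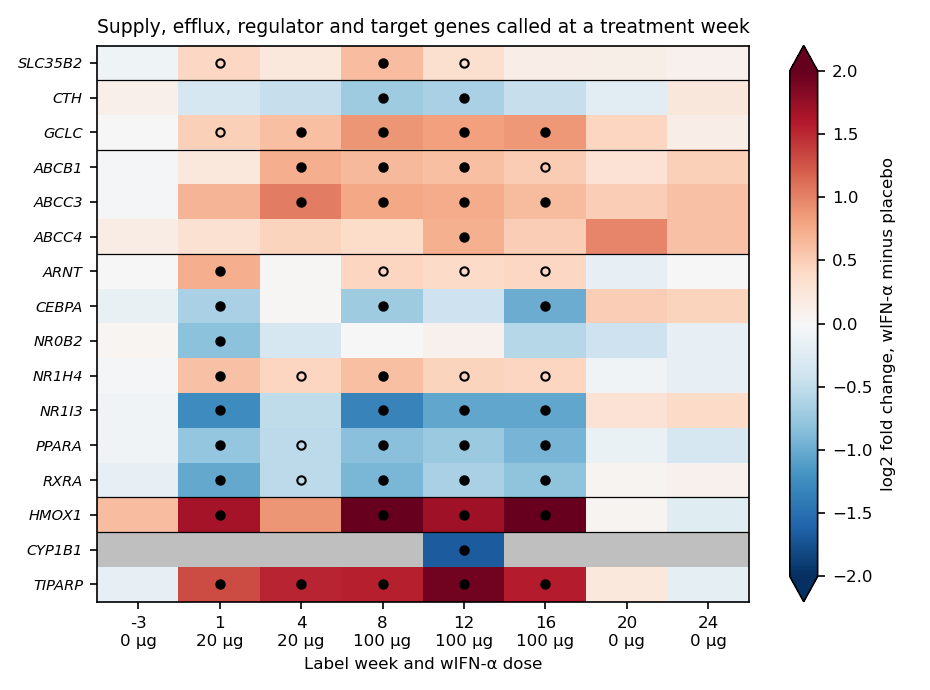
Log2 fold change of wIFN-α over placebo for the 16 genes of donor supply, efflux, regulation and target lists that were called at a treatment week, by list, at each label week with the wIFN-α dose. Circles are as in the plot of the members, grey cells were too low to test. RXRA, PPARA and NR1I3 are blue and GCLC, HMOX1 and TIPARP red from week 1 to week 16, and no circle appears at weeks -3, 20 and 24.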

How the data were processed

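RNA of woodchuck liver biopsies was read as paired 50-nt reads from poly(A)-selected libraries on an Illumina HiSeq. The authors demultiplexed with CASAVA, checked reads with FastQC, mapped them with Bowtie2 to a woodchuck transcriptome that they assembled from these animals, and counted them per gene with SAMtools; versions are not given in the sources used here. The deposited values are estimated counts per gene and run, whole numbers but for 118 of 3368023 entries above 0. The authors also deposited RPKM, used here only to recover each gene's assembled length.

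From 203 runs, counts were summed to 164 biopsies and rounded, the row of the virus was removed, and 149 biopsies were compared. The others were 7 of animal 1004 and 8 of other weeks. Library totals ran from 12072840 to 84805845 reads and set the precision of low genes. Of 38 biopsies with more than 1 run, the chi-square between runs per degree of freedom had a median of 1.85 and a highest value of 137, in placebo animal 1008 at week 16, so the deepest run alone was an alternative.

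Each week was fitted by itself with edgeR 4.0.16 (R 4.3.3; filterByExpr, TMM, quasi-likelihood, adjusted p over all genes, standard errors from the F statistic). Calls took both a fold change above 1.5 and an adjusted p under 0.05, except in contrasts between weeks, which took only the latter. Alternatives were DESeq2 1.42.0, RLE scaling, no filter, the deepest run, animal 1004 included, sex as covariate, a 2-fold limit, no biopsy above 1% muscle reads, leaving out animals in turn (wIFN-α animals at weeks 1 to 20, placebo animals at weeks 16 and 20), all weeks in 1 fit, and that fit with the animal as a block. The term for the lane number and the block without muscle-rich biopsies were added after the data were seen. Biopsies of an animal are labelled with its number: their deviations correlated with a median r of 0.311 over 450 pairs (328 above 0.1), against -0.0236 between animals of an arm. The scripts were checked on simulated data. For week 16, at a fold limit below that used for calls, edgeR recovered 28 of 50 genes changed 1.5-fold and 49 of 50 changed 4-fold. In the dose contrast without the block it recovered 14 of 50 and 46 of 50, so changes near 1.5-fold are often missed. Figures were drawn with matplotlib 3.10.9.

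Members and gene lists were chosen with earlier results of these data known. Members were named with their placebo median, those called with their values, and other genes of the pathway by list, with values for the 3 with the lowest p at week 16. Further genes of the lists are named because they were called, and so were chosen after their values were seen. Replicates are separate animals, and the label weeks are those of the labels, where the first week of treatment is 1. Some results of the marker and pathway lists are not reported here.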

Additional observations from a re-analysis of the deposited data

Results flagged for a closer look

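In 4 of 90 groups of up to 10 animals, 1 value lay far from the others by Dixon's test at the 95% level, where chance gives about 1 in 20. SULT1A4 was 64.2 CPM in placebo animal 1008 at week 20, against 92.3 to 97.7 CPM in the other 4 of 5 animals. SULT1C2P1 was 1.71 CPM in placebo animal 1016 at week 24, against 0.429 to 0.684 CPM in the others of 9. SULT4A1 was 21.3 CPM in wIFN-α animal 1013 at week 12, against 0.691 to 10.3 CPM in the others of 8, and 60.5 CPM in placebo animal 1001 at week 24, against 1.21 to 14.2 CPM in the others of 9. At week 12 the fold change of SULT4A1 was not called, and without animal 1013 it was again not among the calls, which rose from 2 to 4 by GSTO1 and GSTP1.

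The effect of wIFN-α differed between weeks for 14 members in the fit with the animal as a block. In fits without it, SULT1A4 passed with DESeq2, and SULT1A2 and SULT1A4 without the muscle-rich biopsies. From the mean of weeks 1 and 4 (20 μg) to week 16 (100 μg) the log2 effect changed by -0.79 for GSTM1, -0.94 for GSTM4, -0.63 for GSTO1, -0.58 for GSTT1 and -0.75 for MGST1. It changed by -0.59 for SULT1A1, -0.81 for SULT1A2, -0.80 for SULT1A4, -0.46 for SULT1C2, -1.90 for SULT4A1, -0.69 for UGT1A7 and -0.60 for UGT1A8. From week 8 to week 16 it changed by -0.87 for GSTA7P, and from week 1 to week 4 by 1.05 for SULT1B1. Adjusted p in edgeR lay between 0.00359 and 0.0485 with the block, while without it the lowest was 0.0526 over all biopsies.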

How the results depend on the processing

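Of 60 results on single genes under 1372 alternatives, 1193 kept their side of the threshold, 179 lost it and 0 turned their direction. A 2-fold limit left 0 called members at week 1, 1 at week 8, 1 at week 12 and 2 at week 16, and 4, 2, 3, 4 and 4 other pathway genes at weeks 1, 4, 8, 12 and 16. With the animal as a replicate block, 5 members were called at weeks 8 and 12 each, 12 in the contrast of week 16 with weeks 1 and 4, and 1 in each of the other contrasts between weeks. In that paired fit, 2, 6, 5 and 8 members passed the adjusted p at weeks 1, 8, 12 and 16, and 1, 7 and 5 other pathway genes were called at weeks 4, 8 and 12. The block without muscle-rich biopsies called 8, 9 and 13 members at weeks 8, 12 and 16. The share of all genes is not given here for this fit, for all weeks in 1 fit or for single animals left out. These counts therefore cannot be set against a background. All weeks in 1 fit called 1, 1 and 3 members at weeks 4, 12 and 16, with 1, 2, 2 and 4 past the adjusted p at weeks 4, 8, 12 and 16, and 7 other pathway genes at week 12. With the lane number as a term it called 1 and 4 members at weeks 12 and 16, with 2, 4, 1 and 5 past the adjusted p at weeks 1, 8, 12 and 16, and 7 other pathway genes at week 12. DESeq2 called 1 member at each of weeks 4 and 20 and 1 in the dose contrast, with 2 past the adjusted p at week 4. The deepest run gave 1 called member and 1 past the adjusted p at week 4. Leaving out muscle-rich biopsies gave 1 and 1 there, and 2 in the dose contrast. Without single animals the called members numbered 1 to 3, 0 to 1, 2, 2 to 4, 3 to 9 and 0 at weeks 1, 4, 8, 12, 16 and 20, those past the adjusted p 2 to 5, 0 to 2, 11 to 17, 10 to 13 and 13 to 20 at weeks 1 to 16, and other pathway genes 8 to 11, 3 to 6, 11 to 13, 9 to 12 and 8 to 11. RLE scaling, no filter, animal 1004 and sex as a covariate kept each of these counts within 1.5 times. The cause of these shifts was not tested. Depth limits SULT1C2P1, GSTO2 and SULT1A3 most, at medians of 15, 28 and 9 reads.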

Other observations

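Levels in placebo livers moved over the course of the study. The median of SULT4A1 was 0.555 CPM at week -3, 0.678 at week 1, 0.889 at week 4, 2.73 at week 8, 8.07 at week 12, 12.1 at week 16, 13.8 at week 20 and 5.70 at week 24. MGST1 went from 367 CPM at week -3 to 846 CPM at week 16 and 705 CPM at week 24. GSTA3 was 630 CPM at week -3, 1584 at week 8 and 743 at week 24, while SULT1A1 was 108 CPM at week -3, 56.9 at week 12 and 147 at week 24. No test was made between placebo weeks.

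Some members differed between placebo animals more than others did. In 73 placebo biopsies with at most 1% of muscle reads from 12 animals, the animal medians of SULT4A1 ran from 0.444 CPM in animal 1024 to 19.6 CPM in animal 1001, with an SD of 1.41 between animal means on the log2 scale and 1.73 within animals. These 2 animals were not sampled at the same weeks, and the placebo medians above differed between weeks. For the cholesterol sulfotransferase SULT2B1 they ran from 3.33 to 18.2 CPM, with an SD of 0.62 between animal means on the log2 scale and 0.43 within animals. UGT1A10 varied least between animals, from 146.9 to 222.5 CPM, with an SD of 0.15 between and 0.35 within. Animal medians of GSTM5 ran from 361.5 CPM to 1464 CPM and those of GSTM4 from 170.6 to 508.1 CPM, with placebo animal 1016 highest for both.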
